A study of Sus scrofa with 15 samples.

Results

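The genes described here are 37 pig genes of the hypoxia response and of glycolysis, with RNA-seq levels from IPEC-J2 cells. They were taken by symbol, through their NCBI Gene numbers, from the 16804 genes that both deposited FPKM tables list, and all 37 are in both tables. Of these, 19 are known as targets or parts of the hypoxia response outside glycolysis and are called hypoxia-only members below. The other 18 are glycolytic members, which encode enzymes of glycolysis, their regulators and a lactate transporter. FPKM is a count of sequenced fragments corrected for gene length and for the total of the library.

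IPEC-J2 is an epithelial cell line from the small intestine of a newborn pig. All 15 libraries came from total RNA of these cells carrying a lentiviral vector, in 5 groups of 3. Lv3NC (control vector), Lv133KD (against miR-133) and the vector labelled Lv143KD form the knockdown table. Lv20NC (control vector) and OV143 (overexpressing miR-143) form the overexpression table. The series' design text assigns miR-133 to Lv143KD too, so the target of that vector is unsettled, and it is called by its sample label. Levels of these miRNAs were not analysed here, so whether a vector changed its miRNA was not tested. The labels give no promoter, no time after transduction, no oxygen level and no statement on clones or pooled cultures. Whether a group's 3 libraries stem from separate cultures is not stated either, and the p-values then reflect only the spread among libraries, which may be technical.

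Cells sense oxygen through prolyl hydroxylases, among them the products of EGLN1 and EGLN3, which mark the alpha subunit of the hypoxia-inducible factor HIF for destruction by the VHL ubiquitin ligase when oxygen is present. When oxygen falls, the alpha subunit, such as HIF1A, persists, pairs with ARNT and switches on target genes. Many targets raise glucose use and lactate export or lower the entry of pyruvate into mitochondria, others act on blood vessels, mitochondrial turnover and collagen, and EGLN1 and EGLN3 are themselves targets and form a feedback. HIF1A is controlled largely at the protein level, which RNA does not show. The intestinal epithelium lies next to an oxygen-poor lumen, and HIF is known there for roles in barrier function.

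The libraries carried epithelial RNA but little of a mature enterocyte programme. Among 6 epithelial markers, the keratin KRT8 measured 519.95 to 887.5 FPKM and EPCAM 266.8 to 359.0 FPKM over the knockdown libraries. Among enterocyte markers, CDX2 stayed at or under 0.07 FPKM in all 15 libraries and VIL1 measured 0.98 to 4.14 FPKM. Markers of other cell types were low but not all at 0. The leukocyte markers summed to 3.09 to 8.26 FPKM over all libraries, with PTPRC at 0 in the knockdown table and CD68 at 1.33 to 5.24 FPKM. The fibroblast markers summed to 2.16 to 6.39 FPKM, with DCN at or under 0.04 FPKM and COL1A1 at 1.70 to 5.09 FPKM. The endothelial markers summed to 5.29 to 13.6 FPKM, of which CDH5 gave 8.28 to 10.75 FPKM in the knockdown table. Between 11250 and 11557 genes reached 1 FPKM in a library. One library stood apart: the FPKM values of OV143 replicate 2 summed to 662022, against 518578 to 558042 in the other libraries of its table. All 37 members passed the filter on low values in both tables (at least 1 FPKM in at least 3 libraries), so each was tested.

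**Figure D1:**
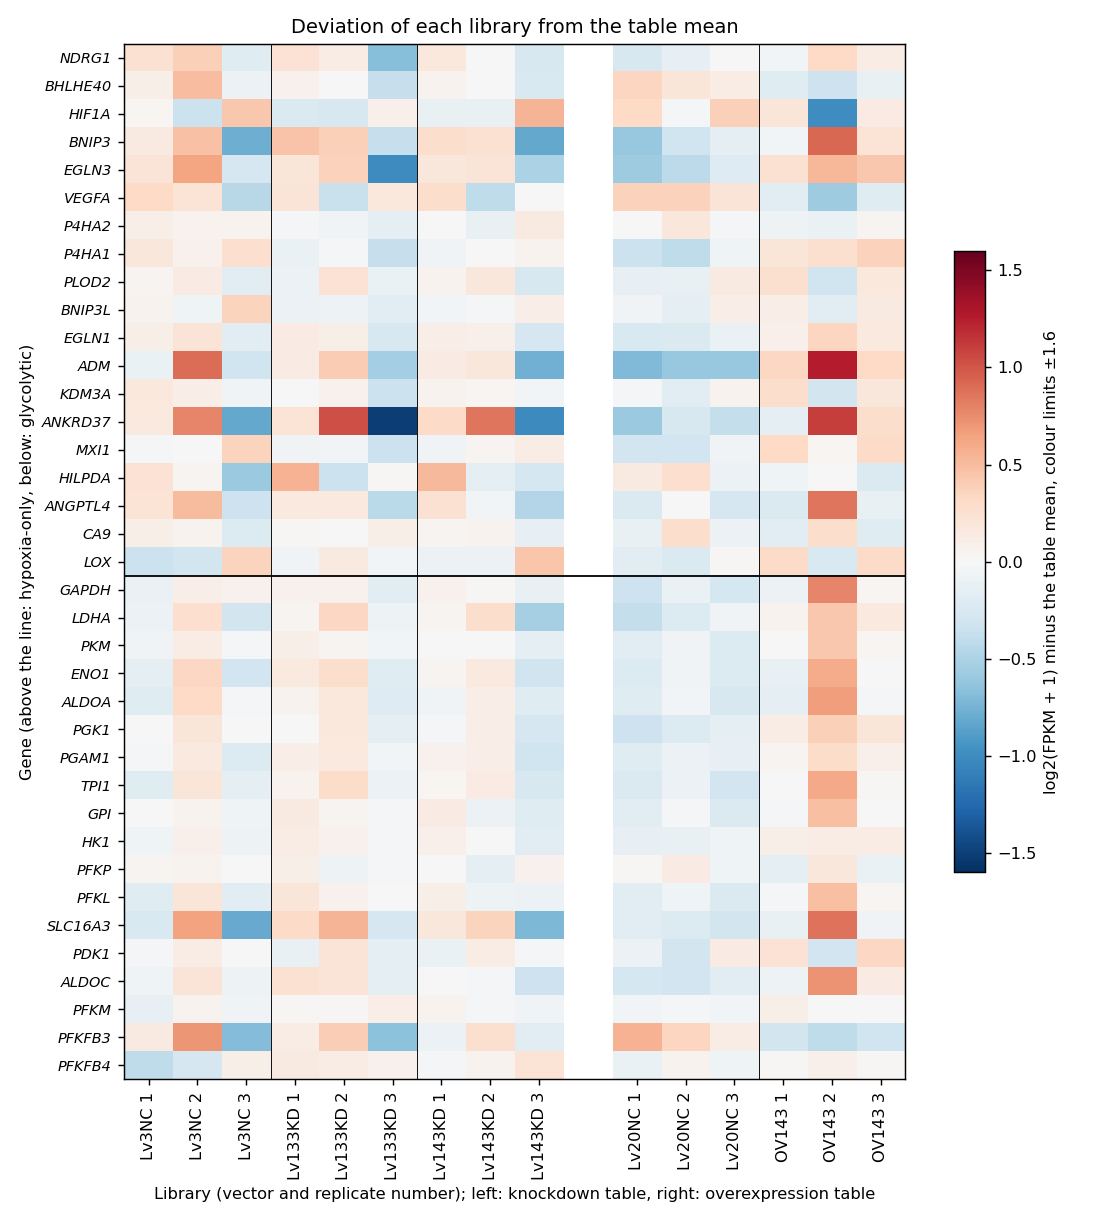
Deviation of log2(FPKM + 1) from the mean of its table for 37 genes (rows, hypoxia-only members above the line and glycolytic members below) and 15 libraries (columns, vector and replicate number). In the knockdown table the columns numbered 2 and 3 differ within every vector for ANKRD37, ADM, EGLN3 and SLC16A3, and in the overexpression table OV143 replicate 2 is the highest column for most glycolytic members.

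Several glycolytic enzymes had the highest levels of the 37 genes, and other glycolytic members were low. GAPDH, which oxidises glyceraldehyde phosphate, had the highest level per length of the 37 genes, at 2697 to 3277 FPKM over the 9 knockdown libraries with a median of 3192 FPKM. LDHA, which turns pyruvate into lactate, followed with a median of 979.55 FPKM, ENO1 (enolase) with 958.7 FPKM and PKM (pyruvate kinase) with 946.6 FPKM. The ranges of these last 3 overlapped, so their order is not settled by these libraries. Reads of several of these genes, GAPDH and LDHA among them, can also match processed pseudogenes, and how shared reads were assigned is not given in the sources used here, so their absolute levels are uncertain.

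Along the pathway, HK1 (hexokinase) had a median of 146.9 FPKM, GPI (glucose phosphate isomerase) 200.6 FPKM, ALDOA (aldolase A) 699.98 FPKM, TPI1 (triose phosphate isomerase) 360.0 FPKM, PGK1 (phosphoglycerate kinase) 705.5 FPKM and PGAM1 (phosphoglycerate mutase) 460.1 FPKM. The 3 phosphofructokinase genes differed in level, with PFKP at 108.0 FPKM, PFKL at 96.96 FPKM and PFKM at 19.2 FPKM. The ranges of PFKP (96.8 to 115 FPKM) and PFKL (85.3 to 111 FPKM) overlapped, and that of PFKM (17.3 to 20.5 FPKM) lay below both. SLC16A3, the lactate exporter, had a median of 61.5 FPKM, PDK1, a kinase that inhibits pyruvate dehydrogenase, 36.2 FPKM, and ALDOC (aldolase C) 20.4 FPKM. PFKFB3 and PFKFB4 make the sugar bisphosphate that activates phosphofructokinase. They were low, at 11.08 FPKM and 2.82 FPKM.

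By their medians the hypoxia-only members lay under the most abundant glycolytic enzymes, but not under all glycolytic members. NDRG1, a stress-responsive gene, had a median of 332.9 FPKM in the knockdown table and BHLHE40, a transcriptional repressor, 282.6 FPKM. HIF1A measured 134.05 FPKM and BNIP3, a mitophagy receptor, 109.5 FPKM. Between 51.0 and 20.3 FPKM lay EGLN3, VEGFA (the vascular growth factor), P4HA2 and P4HA1 (catalytic subunits of collagen prolyl hydroxylase), PLOD2 (collagen lysyl hydroxylase), BNIP3L (a second mitophagy receptor), EGLN1, ADM (the vasodilator peptide adrenomedullin) and KDM3A (a histone demethylase). ANKRD37, a small ankyrin repeat protein, had 18.7 FPKM. The lowest were MXI1 (a MYC antagonist) at 9.4 FPKM, HILPDA (a lipid droplet protein) at 8.47 FPKM, ANGPTL4 (an inhibitor of lipoprotein lipase) at 7.44 FPKM, CA9 (a cell-surface carbonic anhydrase) at 6.23 FPKM and LOX (a collagen cross-linking enzyme) at 3.95 FPKM. CA9 also varied little, between 5.02 and 6.46 FPKM.

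The members differed in how far they moved from library to library. Over the 9 knockdown libraries ANKRD37 ranged 6.82-fold from its lowest to its highest library, ADM 3.33-fold, EGLN3 3.21-fold, PFKFB3 2.93-fold and SLC16A3 2.79-fold. At the other end, PFKM and PFKP ranged 1.19-fold, and GAPDH and PKM 1.22-fold. Of the collagen prolyl hydroxylase genes, P4HA2 was among the steady ones at 1.23-fold and P4HA1 ranged 1.58-fold.

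The overexpression vector OV143 was compared with its control Lv20NC. Most members lay higher in OV143, glycolytic and hypoxia-only alike, but for 3, among them VEGFA and the glycolytic regulator PFKFB3, all OV143 libraries lay below the controls. By the limma test without a block, 0 of 37 members had an adjusted p under 0.05, as was the case for all 11506 genes tested (0%). At an unadjusted p under 0.05 the count was 15 members and 1304 genes. With the replicate number as a block, a fit that compares libraries of the same number, 7 members were called, 5 higher and 2 lower, against 223 genes or 1.94% of all (0.643% higher and 1.29% lower). Libraries of the same number deviated together in these data, so the fit with the block is given beside the other. It leaves only 2 residual degrees of freedom a gene, against 4 without the block, which limits the weight of its p-values. These are bulk samples, in which fewer cells of a type and less RNA per cell cannot be told apart.

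ADM differed most. Its 3 Lv20NC libraries measured 22.4, 24.0 and 24.0 FPKM, and its OV143 libraries 47.0, 89.9 and 46.7 FPKM (61.2 ± 24.9 against 23.5 ± 0.930 FPKM, SD, n = 3 each). Every OV143 library was at a level not reached by any control, and replicate 2 was the highest. The log2 fold change, on the log2(FPKM + 1) scale as throughout, was 1.28 (SE 0.16 with the block), with a limma adjusted p of 0.00802 with the block (0.152 otherwise). The gene lies on chromosome 2 of the build Sscrofa11.1 (chr2:49229223-49231521).

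Of the oxygen sensors, EGLN3 (chr7:65805513-65833536) was called higher. It measured 18.7, 20.7 and 24.1 FPKM in Lv20NC and 33.4, 40.9 and 38.2 FPKM in OV143. The groups did not overlap, and here OV143 replicate 2 was close to the other OV143 libraries. The log2 fold change was 0.80 (SE 0.10 with the block), with a limma adjusted p of 0.00802 with and 0.118 without the block. EGLN1 had 19.4 ± 1.05 FPKM in Lv20NC and 25.8 ± 2.56 FPKM in OV143 (SD, n = 3 each). Its groups did not overlap, with a log2 fold change of 0.39, but its limma adjusted p was 0.0889 with the block. HIF1A measured 223, 173 and 232 FPKM in Lv20NC and 204, 88.9 and 194 FPKM in OV143. Its groups overlapped, replicate 2 was the lowest library of each vector, and the limma adjusted p was 0.148 with the block.

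The mitophagy receptor BNIP3 (chr14:140362123-140371951) measured 48.7, 59.6 and 66.8 FPKM in Lv20NC and 72.5, 142 and 86.8 FPKM in OV143. All OV143 libraries lay above the controls, with replicate 2 well above the other two. The log2 fold change was 0.73 (SE 0.15 with the block; limma adjusted p 0.0428 with the block and 0.325 without). Its relative BNIP3L did not differ in this way, at 42.2 ± 3.89 FPKM in Lv20NC and 44.0 ± 5.24 FPKM in OV143 (log2 fold change 0.06, groups overlapping). The difference between both receptors was not tested.

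ANKRD37 (chr15:46445789-46450046) measured 7.35, 9.48 and 8.61 FPKM in Lv20NC and 10.35, 26.0 and 14.2 FPKM in OV143. Its OV143 libraries were spread over a wider range than its controls but lay above all of them. The log2 fold change was 0.82 (SE 0.16 with the block; limma adjusted p 0.0342 with the block and 0.347 without).

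Among the collagen-modifying enzymes P4HA1 (chr14:75827207-75919121) was called. It measured 26.9, 25.7 and 32.9 FPKM in Lv20NC and 39.5, 41.4 and 44.9 FPKM in OV143. No library of one group reached into the range of the other, and replicate 3 was the highest in both. The log2 fold change was 0.55 (SE 0.10 with the block; limma adjusted p 0.0270 with the block and 0.20 in the other fit). The other subunit gene, P4HA2, had a log2 fold change of -0.10, PLOD2 of 0.07 and LOX of 0.25, and the groups of each overlapped.

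The called members that were lower in OV143 were a secreted factor and a glycolytic regulator. VEGFA (chr7:38746393-38762282) measured 67.2, 67.0 and 59.8 FPKM in Lv20NC and 45.5, 34.4 and 45.1 FPKM in OV143. All OV143 libraries lay below the controls, with a log2 fold change of -0.63 (SE 0.12 with the block; limma adjusted p 0.0310 with the block and 0.179 without). PFKFB3 (chr10:64776315-64859118) measured 10.35, 8.78 and 7.37 FPKM in Lv20NC and 5.31, 4.84 and 5.21 FPKM in OV143. Its OV143 libraries lay close together under every control, with a log2 fold change of -0.67 (SE 0.12 with the block; limma adjusted p 0.0219 with the block and 0.158 in the other fit). The repressor BHLHE40 had 320.0 ± 25.7 FPKM in Lv20NC and 236.4 ± 17.1 FPKM in OV143 without overlap, and a limma adjusted p of 0.0700 with the block.

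**Figure D2:**
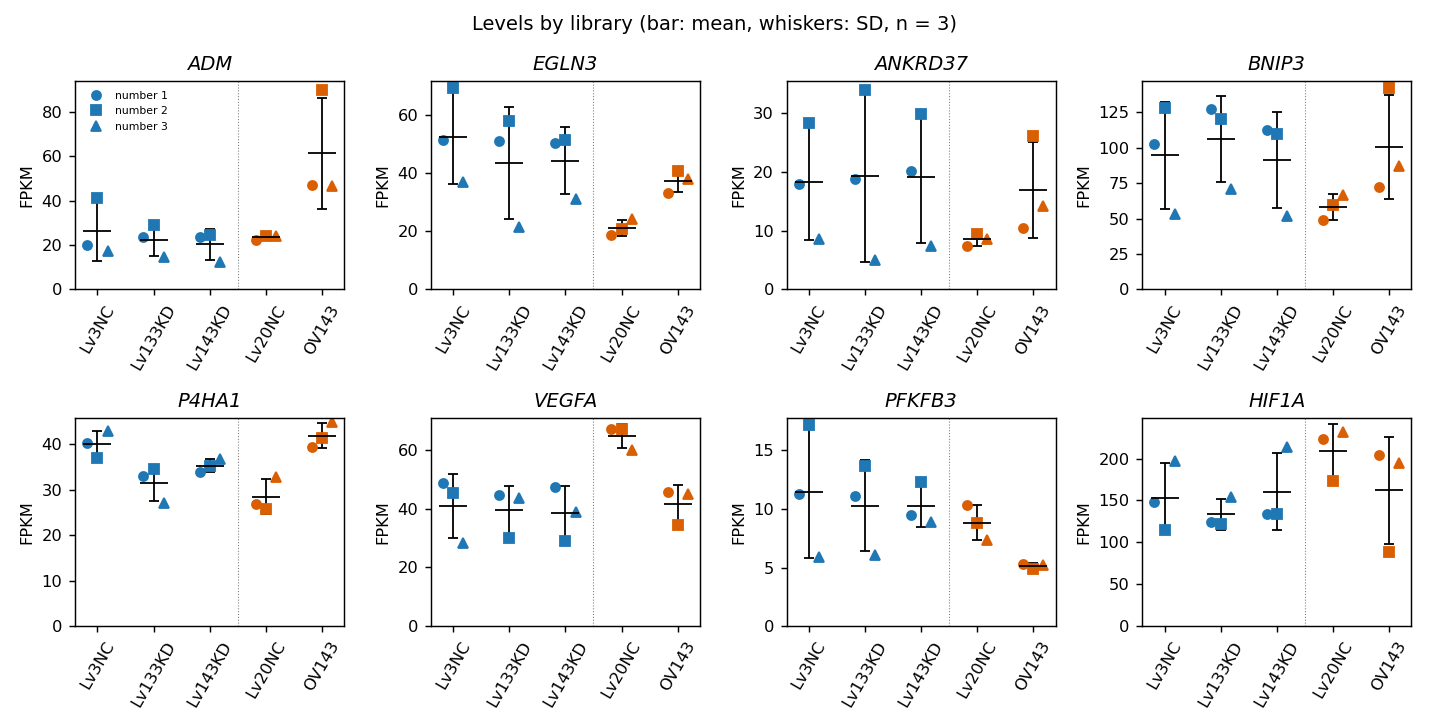
FPKM by library (points) of 8 hypoxia response and glycolysis genes in the 5 vector groups, with the mean (bar) and SD (whiskers, n = 3). Circle, square and triangle stand for replicate numbers 1, 2 and 3, and the dotted line parts the separately deposited tables. ADM, EGLN3, ANKRD37, BNIP3 and P4HA1 lie higher and VEGFA and PFKFB3 lower in all 3 OV143 libraries than in Lv20NC, and in the knockdown groups the square lies above the triangle for ADM, EGLN3, ANKRD37, BNIP3 and PFKFB3.

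The glycolytic members as a list had a median log2 fold change of 0.31 in OV143, and 16 of 18 were higher than in Lv20NC. The hypoxia-only members had a median of 0.25, with 13 of 19 higher. Over all genes tested the median was -0.02 and 45.8% were higher. Under a common FPKM sum the glycolytic median was 0.20, with 14 of 18 higher, and the median of all genes -0.12. The glycolytic median was 0.37 (17 higher) with median centring and 0.16 (16 higher) with quantile normalization, where all genes had 0.04 and 0.01. Groups did not overlap, with OV143 higher, for 12 glycolytic and 7 hypoxia-only members, 19 of 37 against 8.96% of all genes. They did not overlap with OV143 lower for VEGFA, BHLHE40 and PFKFB3, 3 of 37 against 12.9% of all genes.

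None of the 16 glycolytic members that were higher was called with the block. PGK1 came nearest, with 661, 719 and 753 FPKM in Lv20NC and 908, 1084 and 957 FPKM in OV143 (log2 fold change 0.46, limma adjusted p 0.0638 with the block). LDHA measured 755, 851 and 947 FPKM in Lv20NC and 1029, 1335 and 1104 FPKM in OV143 (log2 fold change 0.44, limma adjusted p 0.0922 with the block). In both genes all OV143 libraries were higher than all controls. GAPDH measured 2730, 3210 and 2837 FPKM in Lv20NC and 3222, 5937 and 3530 FPKM in OV143. Its groups lay apart by only a small gap, between 3210 and 3222 FPKM, and replicate 2 alone was far above the rest. PFKM, at 18.4 ± 0.0608 and 19.5 ± 0.740 FPKM (SD, n = 3 each), differed little, with a log2 fold change of 0.07 that became -0.04 when libraries were scaled to a common FPKM sum. PFKP (log2 fold change -0.05) was the only glycolytic member beside PFKFB3 that was lower.

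**Figure D3:**
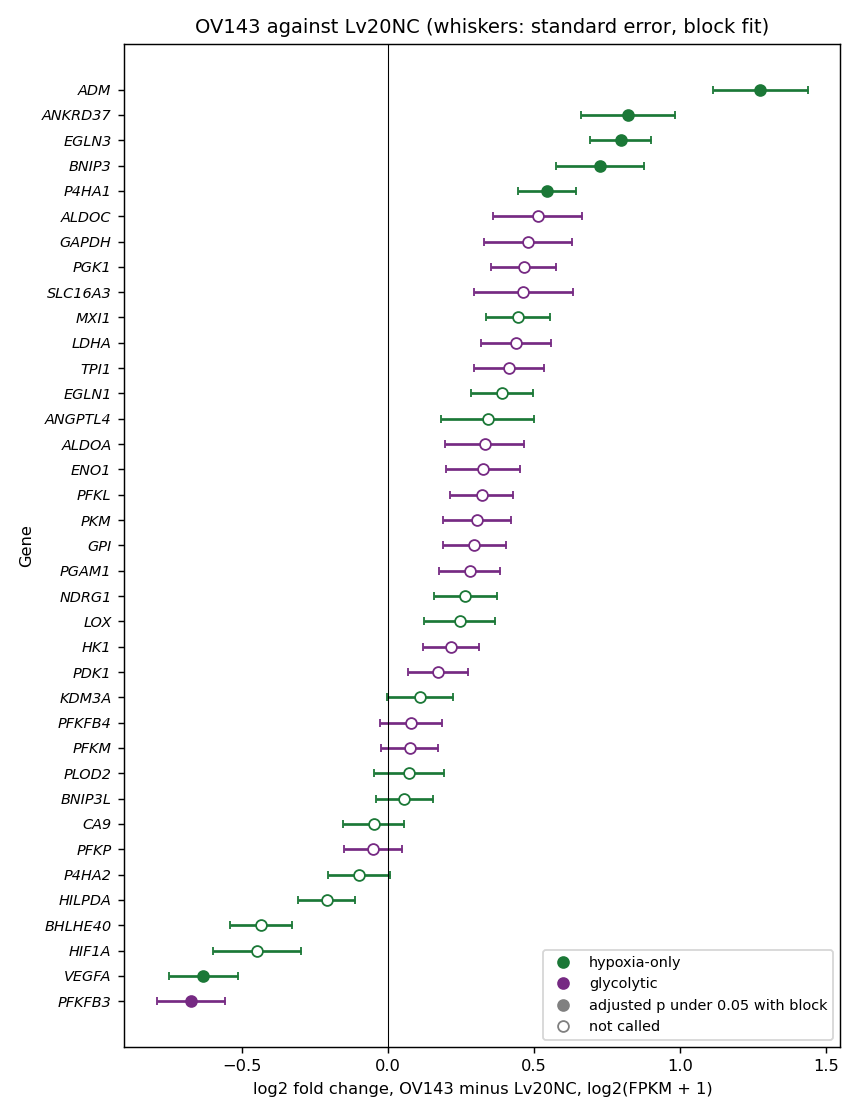
Log2 fold change of 37 genes in OV143 against Lv20NC on the log2(FPKM + 1) scale (horizontal axis; points, with whiskers of 1 standard error from the limma fit with the replicate block), ordered by value, hypoxia-only members in green and glycolytic members in purple. The 7 filled points have an adjusted p under 0.05 with the block and lie at both ends of the order, ADM at 1.28 and PFKFB3 at -0.67.

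The glycolytic difference was widest in OV143 replicate 2. The 18 glycolytic members made up 2.10% of its FPKM sum, against 1.69% and 1.76% in the other OV143 libraries and 1.46% to 1.53% in Lv20NC. The sum of the 6 epithelial markers ranged over 2306 to 3396 FPKM in OV143 and 2437 to 2733 FPKM in Lv20NC, and the part of this spread in the result was not tested. Without OV143 replicate 2 the glycolytic median was 0.16, with 16 of 18 still higher, and the hypoxia-only median was 0.25. That fit, without the block, called 9 members (6 higher and 3 lower) against 4.48% of 11414 genes. They were ADM, EGLN3, P4HA1, MXI1, LOX and PGK1, which were higher, and VEGFA, BHLHE40 and PFKFB3, which were lower. ANKRD37 (log2 fold change 0.48, limma adjusted p 0.0673) and BNIP3 (0.45, limma adjusted p 0.0662) were no longer called and their changes were smaller by more than 1.5 times.

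The 7 calls depended on the block and on the genes tested: with the block but no filter on low values, 0 members were called (limma adjusted p 0.248 to 0.278). With the block and both libraries of 1 number left out, 11 members were called without the libraries numbered 1 (6.03% of all genes), 22 without those numbered 2 (12.8%) and 6 without those numbered 3 (2.45%, P4HA1 being lost at a limma adjusted p of 0.0961). Those fits have 1 residual degree of freedom a gene, so their counts are given and their p-values carry little weight. Scaling also mattered. A common FPKM sum moved the median of all genes to -0.12 and, with the block, left 3 members called higher and 3 lower (1.76% of all genes called). Median centring left 4 higher and 1 lower (1.45% of all genes), and quantile normalization 6 higher and 3 lower (2.23%). The share of higher genes among all calls was 33.2% as deposited, 15.8% with the common sum, 46.1% with median centring and 38.1% with quantile normalization. ADM, EGLN3, ANKRD37 and PFKFB3 were called under each of the 3 scalings run with the block.

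In the knockdown table no member was called for either vector, and most differences were within the spread between libraries. The test of Lv133KD against Lv3NC called 0 of 37 members with limma, against 2 genes or 0.0172% of 11645, and 0 with the block, against 0.258%. At an unadjusted p under 0.05 there was 1 member, P4HA1, against 380 of all 11645 genes. With the block 7 members were under that threshold, against 1922 genes. P4HA1 measured 40.2, 37.1 and 43.0 FPKM in Lv3NC and 33.0, 34.6 and 27.1 FPKM in Lv133KD. All Lv133KD libraries were below the controls, with a log2 fold change of -0.34 (SE 0.11; limma adjusted p 0.926, and 0.224 with the block). BNIP3L (log2 fold change -0.23), MXI1 (-0.26) and P4HA2 (-0.15) were also lower in every Lv133KD library, 4 of 37 members in all against 3.33% of genes. PFKFB4 was among the 5 members with the smallest p, at 2.22 ± 0.583 FPKM in Lv3NC and 2.92 ± 0.0917 FPKM in Lv133KD with overlapping groups (log2 fold change 0.30).

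The lists leaned different ways in Lv133KD without any member being called. Of the hypoxia-only members 14 of 19 were lower, with a median log2 fold change of -0.16, and of the glycolytic members 12 of 18 were higher, with a median of 0.08. The median of all genes was 0.01. The hypoxia-only median turned to 0.03 without Lv133KD replicate 3 and to 0.01 without Lv3NC replicate 2. Those fits had no block and left the replicate numbers unequal between the vectors, so they cannot part a library from its number. EGLN3, NDRG1, BNIP3L, P4HA1, P4HA2, KDM3A, ANGPTL4, MXI1 and BHLHE40 were lower in Lv133KD in each of the 3 same-number pairs. No hypoxia-only member was higher in all 3, the others being mixed, and the share of all genes was not counted. HIF1A had 153 ± 41.1 FPKM in Lv3NC and 133 ± 18.1 FPKM in Lv133KD (SD, n = 3 each), a difference within the spread.

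Lv143KD differed less from Lv3NC. Again 0 members were called, against 0.0172% of genes and, with the block, 0.172%. Without the block 0 members had an unadjusted limma p under 0.05, against 208 of all genes. P4HA1 was lower in every Lv143KD library, at 33.95, 35.3 and 36.9 FPKM (log2 fold change -0.18), the 1 member without overlap against 2.03% of genes. PFKFB4 (log2 fold change 0.28) had the smallest p, and BHLHE40 (-0.22), PGK1 (-0.13) and ALDOC (-0.14) came after P4HA1 by p. The groups overlapped for each of these but P4HA1. The median log2 fold change was -0.06 for hypoxia-only and -0.03 for glycolytic members. As in Lv133KD, 14 of 19 hypoxia-only members were lower, and here 12 of 18 glycolytic members too, against 6493 of 11645 genes. Both knockdown comparisons share the Lv3NC libraries, so the like direction of P4HA1 and of the hypoxia-only members in them is not independent. With the block the smallest limma adjusted p of a member was 0.821.

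Set against each other, Lv133KD and Lv143KD gave 0 called members and 0 called genes (0%), with and without the block. Without it no member had an unadjusted limma p under 0.05, against 15 of all genes. P4HA1 (log2 fold change -0.17), ALDOC (0.22), MXI1 (-0.19), BNIP3L (-0.13) and GPI (0.11) had the smallest p. ALDOC measured 24.8, 24.3 and 18.7 FPKM in Lv133KD and 21.0, 20.4 and 16.3 FPKM in Lv143KD, with overlapping ranges. Glycolytic members had a median log2 fold change of 0.08 and hypoxia-only members of -0.07. The first became -0.003 without Lv143KD replicate 3, and the second 0.07 without Lv133KD replicate 3.

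The replicate number parted the knockdown libraries far more than the vector did. With vector and number in 1 limma model, an F test of the number (adjusted p under 0.05) called 20 of 37 members, 11 of 19 hypoxia-only and 9 of 18 glycolytic. Of all 11645 genes 36.6% were called, so a large share of genes differed by number. What a number marks is not stated in the labels. Libraries numbered 2 also had fewer genes at 1 FPKM or more (11250 to 11399, against 11453 to 11557), and the part of this in the result was not tested.

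Most members shared a direction, though the full order depended on the scaling. In 22 of 37 members the mean of number 2 was highest and that of number 3 lowest, an order that 26.8% of all genes had. Under a common FPKM sum 6 of 19 hypoxia-only and 9 of 18 glycolytic members had it, and 2501 of 11645 genes, so fewer members than not. Number 2 was above number 3 in 12 or 13 of 19 hypoxia-only and in 15 or 16 of 18 glycolytic members under each scaling run. Of all 11645 genes, 5064 to 5772 had number 2 above number 3, depending on the scaling. Number 3 was the lowest library within each of the 3 vectors for 19 members, against 17.1% of all genes, and number 2 the highest within each for 13, against 17.4%. The median log2 difference of number 2 over number 3 was 0.22 for hypoxia-only members, 0.26 for glycolytic members and -0.01 for all genes. Over 3 other scalings the first ranged from 0.17 to 0.21 and the second from 0.20 to 0.22.

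ANKRD37 spanned the widest range. In the order Lv3NC, Lv133KD and Lv143KD its libraries numbered 1 measured 17.9, 18.7 and 20.01 FPKM, those numbered 2 measured 28.3, 33.9 and 29.8 FPKM, and those numbered 3 measured 8.63, 4.97 and 7.43 FPKM. The 3 numbers did not overlap whatever the vector. On the log2(FPKM + 1) scale number 2 was 4.02-fold above number 3 (limma adjusted p 2.75e-04).

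BNIP3 set number 3 apart from the others. In the same order of vectors it measured 102, 127 and 112.5 FPKM in number 1, 128, 120.2 and 109 FPKM in number 2, and 53.4, 71.1 and 51.9 FPKM in number 3. Numbers 1 and 2 overlapped and number 3 lay under both, 2.03-fold below number 2 (limma adjusted p 5.40e-04). The lactate exporter SLC16A3 measured 45.3, 67.0 and 61.5 FPKM in number 1, 85.0, 78.9 and 69.4 FPKM in number 2, and 30.5, 44.6 and 32.4 FPKM in number 3. Its 3 numbers did not overlap, and number 2 was 2.16-fold above number 3 (limma adjusted p 0.00207).

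EGLN3 measured 51.6, 51.0 and 50.5 FPKM in number 1, 69.2, 57.9 and 51.4 FPKM in number 2, and 36.9, 21.6 and 31.0 FPKM in number 3. Number 1 was nearly constant across vectors, and number 3 was lowest in each (1.99-fold below number 2; limma adjusted p 0.00263). ADM measured 19.98, 23.8 and 23.7 FPKM in number 1, 41.2, 28.9 and 24.7 FPKM in number 2, and 17.2, 14.5 and 12.4 FPKM in number 3. Its highest library was Lv3NC replicate 2, and number 3 lay below all others (2.05-fold below number 2; limma adjusted p 0.00426). ANGPTL4 measured 7.84, 7.44 and 7.99 FPKM in number 1, 9.79, 7.49 and 6.37 FPKM in number 2, and 5.05, 4.66 and 4.49 FPKM in number 3. Number 3 was again the lowest in each vector (limma adjusted p 0.00532).

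LDHA measured 896, 987 and 979.55 FPKM in number 1, 1154, 1204 and 1162 FPKM in number 2, and 780.2, 905 and 662 FPKM in number 3. Number 2 lay above all other libraries, 1.51-fold over number 3 (limma adjusted p 0.00641). Of the other glycolytic members, PFKFB3, ENO1, TPI1, PGAM1, PGK1, ALDOC and ALDOA were called, all with number 2 highest and number 3 lowest. GAPDH (limma adjusted p 0.479) and PKM (0.360) were not called. The 18 glycolytic members together made up 1.82% to 1.92% of the FPKM sum in number 2, 1.68% to 1.85% in number 1 and 1.53% to 1.65% in number 3.

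HIF1A went the other way. It measured 149, 124 and 134.05 FPKM in number 1, 115, 122 and 133.96 FPKM in number 2, and 197, 154 and 214 FPKM in number 3. Number 3 was the highest library of each vector, 1.51-fold above number 2 (limma adjusted p 0.00601). It was the 1 member with number 3 highest in all 3 vectors, against 13.3% of all genes. HILPDA was called with another order, number 1 being highest with means of 11.7, 7.45 and 6.77 FPKM in numbers 1, 2 and 3.

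**Figure D4:**
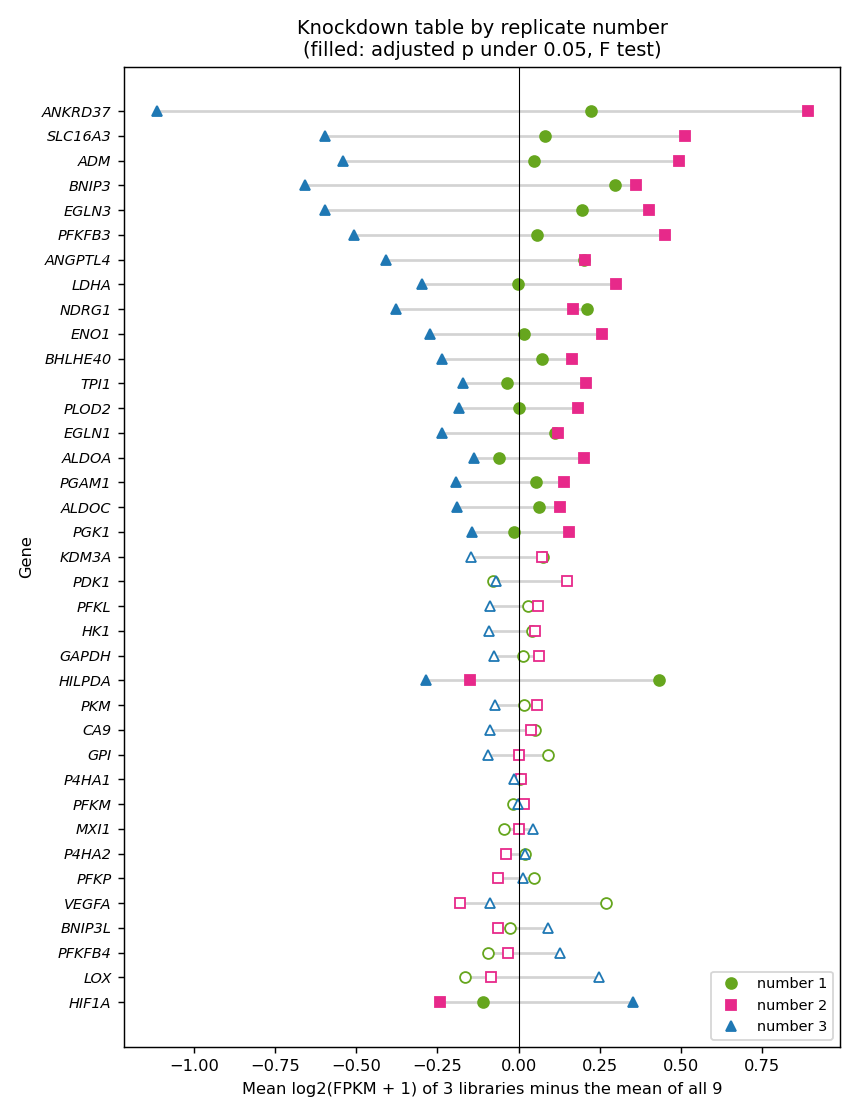
Mean log2(FPKM + 1) of the 3 knockdown-table libraries with replicate number 1 (green circles), 2 (pink squares) or 3 (blue triangles), as the difference from the mean of all 9 libraries (horizontal axis), for 37 genes ordered by the gap between numbers 2 and 3. Filled points mark the 20 genes with an adjusted p under 0.05 in the limma F test of the number; HIF1A, at the bottom, has number 3 highest.

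Single libraries moved these counts. Over the 9 fits that each left out 1 library, 11 to 24 members were called: 11 without Lv143KD replicate 3 (14.1% of genes), 13 without Lv143KD replicate 2 (12.4%) and 24 without Lv133KD replicate 3 (59.4%). The 11 members called in all 9 fits were ANKRD37, BNIP3, SLC16A3, EGLN3, ADM, ANGPTL4, HIF1A, LDHA, PFKFB3, NDRG1 and ENO1. In the overexpression table the same limma test of the number called 0 of 37 members, against 0.0521% of genes. At an unadjusted p under 0.05 there were 12 members, and the share of all genes at that threshold was not counted. That table has 2 libraries of each number. Leaving out 1 library gave 0 to 29 called members, with 29 without Lv20NC replicate 2, a fit that called 54.8% of all genes.

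Genes around the members were looked at through lists chosen by function. In OV143 against Lv20NC with the block, 3 of 23 tested further HIF targets were called, against 1.94% of all genes. ERO1A, an oxidase of the endoplasmic reticulum, measured 34.8, 33.7 and 53.3 FPKM in Lv20NC and 69.8, 69.0 and 74.5 FPKM in OV143 (log2 fold change 0.82; limma adjusted p 0.0125 with and 0.191 without the block). ZNF395, a zinc finger protein, had 7.10 ± 0.722 FPKM in Lv20NC and 11.2 ± 0.711 FPKM in OV143 (limma adjusted p 0.0342 with and 0.139 without the block). In both genes all OV143 libraries lay above the controls, while the median of the 23 was -0.02.

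The other lists had no called gene in that comparison, with or without the block: 0 of 15 genes of the HIF machinery (median log2 fold change -0.08), 0 of 11 further glycolytic isozymes (-0.08), 0 of 17 genes of pyruvate entry and gluconeogenesis (-0.09) and 0 of 7 of the pentose phosphate pathway (0.14). At an unadjusted limma p under 0.05 without the block they held 2, 0, 3 and 2 genes, against 1304 of all 11506. With the block they held 7, 1, 5 and 2 genes at that threshold, against 2288 of all. None of the 5 lists had a called gene in the 3 knockdown-table comparisons with or without the block. The further isozymes thus had a median below 0 where the glycolytic members had 0.31, a difference that was not tested.

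By replicate number in the knockdown table, 15 of 23 further HIF targets were called, against 36.6% of all genes. SLC2A1, the basal glucose transporter, had means of 109, 108 and 64.5 FPKM in numbers 1, 2 and 3 (limma adjusted p 9.09e-04). The glycogen genes GBE1 (branching enzyme; 10.9, 17.7 and 10.3 FPKM) and GYS1 (glycogen synthase; 12.8, 19.2 and 7.88 FPKM) were highest in number 2. PPP1R3C, which targets a phosphatase to glycogen, was lowest there, at 115, 62.1 and 114 FPKM. So the called HIF targets did not all share 1 order. In the HIF machinery 6 of 14 were called (42.9%, near the share of all genes). Among them, EPAS1, a second HIF alpha subunit, was highest in number 3 like HIF1A (20.1, 14.1 and 33.0 FPKM; limma adjusted p 0.00181). CITED2, a competitor of HIF for its coactivators, was lowest in number 2 (26.8, 13.2 and 17.6 FPKM), as were the partner ARNT (23.5, 19.1 and 23.2 FPKM) and the coactivator CREBBP (5.29, 3.78 and 4.96 FPKM).

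In the remaining lists the share called by number was near that of all genes (36.6%), with 45.5% for the further glycolytic isozymes, 33.3% for pyruvate entry and gluconeogenesis and 42.9% for the pentose phosphate pathway. Nothing is read from these counts about the lists, and single genes are given as values. Of the further glycolytic isozymes 5 of 11 were called. HK2, the hypoxia-responsive hexokinase, had means of 35.2, 41.3 and 23.7 FPKM in numbers 1, 2 and 3 (limma adjusted p 0.0025), the order seen in LDHA and ENO1. PGAM2 (18.6, 9.65 and 16.5 FPKM), PKLR (9.50, 7.25 and 11.7 FPKM) and PFKFB1 (7.57, 5.58 and 8.54 FPKM), forms better known from muscle or liver, were lowest in number 2. In pyruvate entry and gluconeogenesis 6 of 18 were called. The strongest were GPT2, a mitochondrial alanine transaminase (23.0, 6.66 and 23.0 FPKM; limma adjusted p 1.10e-04), and PCK2, the mitochondrial gluconeogenic carboxykinase (33.6, 14.8 and 38.1 FPKM; limma adjusted p 3.57e-04), both lowest in number 2. In the pentose phosphate pathway 3 of 7 were called, and PGD had means of 41.9, 57.9 and 29.1 FPKM.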

How the data were processed

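The tables, per the file headers, hold the deposited values as FPKM rounded to 2 decimals, for 9 knockdown and 6 overexpression libraries. Sscrofa11.1 is the build in the submitters' processing notes. Aligner, counting tool, annotation and strand use are not given in those sources. Read totals cannot be recovered from values in steps of 0.01 FPKM, so precision is given as the SD over 3 libraries or a standard error. Tables were deposited separately, so each was tested separately and no test crosses them. RefSeq gene entries for Sscrofa11.1 supplied symbols and coordinates.

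The filter asked for 1 FPKM or more in 3 or more libraries (11645 and 11506 genes). Values were tested as log2(FPKM + 1), a scale on which changes of low genes look too small, with limma 3.58.1 in R 4.3.3 (group model, trended empirical Bayes variance, two-sided, Benjamini-Hochberg over all genes tested, called at 0.05). A run on simulated data required only that most added changes came out with the right sign. It set no limit on false calls. Replicate numbers pair the libraries by a check of the data: libraries of the same number deviated from their group means together, with correlations of 0.27 to 0.852 (9 pairs, knockdown) and 0.229 to 0.716 (3 pairs, overexpression) against a limit of 0.1. Libraries of different numbers reached 0.379 and 0.54, and Lv20NC replicate 3 with OV143 replicate 1 (0.54) exceeded the same-number pair of replicates 1 (0.229), so the pairing is not clear-cut. The fit with the number as a block is an alternative to the design without it.

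Members, their split and the further lists were chosen with earlier results of these data known. Named with statistics are members called with or without the block (up to 8), or else the 5 with the smallest p, the 8 with the smallest p for the replicate number, and up to 4 called genes of a further list. LDHB was not analysed because its symbol maps to more than 1 gene number, and INSIG2, STC2 and G6PC1 were not analysed here. The result of 1 gene that the rule names is not reported here. No sequences are given. Alternatives were other pseudocounts, filters, scalings, variance models, the block and leaving out libraries.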

Additional observations from a re-analysis of the deposited data

How the results depend on the processing

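For OV143 against Lv20NC, 0 members were called without and 7 with the replicate block. Leaving out libraries gave 0 to 22, of which 9 came without OV143 replicate 2 and 6 to 22 from fits with the replicate block lacking both libraries of a number. With the replicate block, no filter on low values gave 0 (chosen after seeing the data, as were all settings combined with the block); more genes are then tested, and the cause was not tested further. The hypoxia-only median there was 0.19 with at least 5 FPKM in 3 libraries, 0.15 with a common FPKM sum, 0.30 with median centring, 0.18 with quantile normalization, and 0.15 to 0.29 with 1 library left out. PFKM turned to -0.036 under a common FPKM sum, with and without the replicate block; the cause was not tested. By replicate number, leaving out a library gave 11 to 24 called members (knockdown libraries) and 0 to 29 (overexpression libraries; the 29 without Lv20NC replicate 2, where 54.8% of all genes were called). In the 3 knockdown-table comparisons the count stayed at 0 under every alternative run, the replicate block included. Depth is unknown, which limits low genes such as PFKFB4 and LOX most.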
